A study of Schizosaccharomyces pombe with 36 samples.

Results

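The genes described here encode the factors that build ribosomes in the fission yeast Schizosaccharomyces pombe. They were chosen by name alone, as the protein-coding genes whose PomBase name is utp, nop, rrp, noc, dbp, imp or rix followed by digits, together with fib1, cbf5, gar1 and nhp2. This gave 77 genes out of 5106 protein-coding genes and 7268 S. pombe genes counted in all. By annotated role they fell into 32 genes of the small-subunit processome, 23 large-subunit factors, 8 exosome subunits and 7 proteins of the box C/D and box H/ACA particles. The other 7 genes match the naming rule but have other or unclear roles: imp1 is an importin alpha, imp2 a cytokinesis protein, dbp5 an mRNA export helicase, dbp2 another DEAD-box helicase, and rrp1 and rrp2 are DNA translocases named for a different function. With noc12, they are kept apart where classes are compared, but they count among the 77 in every total.

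Ribosome assembly begins in the nucleolus, where a single long precursor of the small- and large-subunit rRNAs is made. The small-subunit processome, which includes the U3 small nucleolar RNA, folds and cleaves the small-subunit part, while the large-subunit factors process and fold the remainder and the exosome trims and degrades precursor fragments. Box C/D particles, with fibrillarin (fib1) as their catalytic subunit, methylate rRNA, and box H/ACA particles, with the synthase cbf5, convert uridines to pseudouridines. In the budding yeast Saccharomyces cerevisiae, where most of the roles named below were worked out, the genes for these factors are transcribed with growth, as ribosomal protein genes are, but as a separate regulon.

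The series holds 36 RNA-seq libraries from 6 cultures: 3 of a wild-type strain (WT, strain yAS99) and 3 of a strain lacking slr1 (labelled slr1-, strain yMAB001), each culture grown from a single colony in rich medium (YES) at 32C. Slr1 is the fission yeast homologue of the RNA-binding protein LARP1, and the series title poses the question of how it affects the stability and expression of a class of mRNAs. Every culture received 5 mM 4-thiouracil, a uracil analogue that marks new RNA, and gave 6 libraries. One is steady-state RNA, and 5 are thiolated RNA selected by a biotin-streptavidin pull-down from cells taken at time points 5, 20, 50, 105 and 125 (the labels give no unit). The labels do not say how many clones of the deletion strain were used, and they name no other allele for either strain. Each group therefore has n = 3 cultures.

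S. pombe counts per library ran from 921427 to 6517092. The cultures fell into 2 sets by the ratio of fly to human counts in their steady-state libraries, since human and fly genes are counted in the same files: set A (WT cultures 1 and 2, knockout culture 2) lay between 0.990 and 1.07, and set B (WT culture 3, knockout cultures 1 and 3) between 1.85 and 2.15. The targeted gene matched the labels. At steady state slr1 stood at 143.4, 111.1 and 128.3 CPM (read counts scaled to library size) in WT and at 13.52, 25.84 and 16.22 CPM in the knockout, a log2 fold change of −2.74 (SE 0.29, adjusted p = 0.0218, edgeR quasi-likelihood test with Benjamini-Hochberg adjustment). All levels below are CPM after TMM scaling, which are shares of the S. pombe RNA in a library and not amounts per cell; in a bulk culture, fewer cells expressing a gene and less RNA per cell cannot be told apart.

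All 77 genes passed the filter on low counts in every comparison. In WT steady-state RNA their mean levels ran from 41.94 CPM (noc12) to 837.2 CPM (cbf5), with a median of 166.9 CPM. Per kilobase of transcript, the box particle proteins were the highest class, with a median of 452.3 CPM per kb. Large-subunit factors (93.82), the small-subunit processome (75.45) and the exosome (72.24 CPM per kb) were close to each other. For comparison, the 141 cytosolic ribosomal protein genes had a median of 2810 CPM per kb. The genes lie on chromosomes I (32 genes), II (35) and III (10), and the median coding length was 1621.5 bases in the small-subunit processome, 1590 in the large-subunit factors, 844.5 in the exosome and 918 in the box particle proteins.

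The promoters of some genes named below are shown first. Of the box particle genes called lower in a comparison below, fib1, cbf5 and nop56 are shown, and nop10 and nhp2 are not. Whether promoter letters bear on any change below was not tested. The sequences are from RefSeq (assembly ASM294v3), the 100 bases before the annotated start, written 5′ to 3′ on the coding strand. Capitals mark AGTCAC, the core of the HomolD box of S. pombe ribosomal protein promoters, ACCCTA, the core of the HomolE box found beside it, and AAAATTTT, the core of the RRPE element known from ribosome biogenesis promoters of S. cerevisiae. The first 3 genes encode box particle proteins, the next 2 processome proteins, and rps29 is a ribosomal protein gene shown for comparison. They lie at II:2983711-2983810 on the minus strand (fib1), I:5140240-5140339 on the plus strand (cbf5), II:942374-942473 on the minus strand (nop56), II:4120748-4120847 on the minus strand (utp20), II:3191119-3191218 on the minus strand (utp22) and II:516328-516427 on the plus strand (rps29).
fib1: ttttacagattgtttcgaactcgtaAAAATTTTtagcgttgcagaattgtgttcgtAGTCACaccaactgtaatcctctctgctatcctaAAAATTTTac
cbf5: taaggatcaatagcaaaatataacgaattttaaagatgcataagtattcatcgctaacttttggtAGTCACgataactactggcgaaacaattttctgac
nop56: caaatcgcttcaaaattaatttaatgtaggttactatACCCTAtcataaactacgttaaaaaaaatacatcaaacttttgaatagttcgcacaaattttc
utp20: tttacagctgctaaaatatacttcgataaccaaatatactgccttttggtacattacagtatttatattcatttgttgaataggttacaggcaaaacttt
utp22: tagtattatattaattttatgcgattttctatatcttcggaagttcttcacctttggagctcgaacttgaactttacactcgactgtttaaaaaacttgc
rps29: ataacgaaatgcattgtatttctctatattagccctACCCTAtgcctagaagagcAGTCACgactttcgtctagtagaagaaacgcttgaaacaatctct

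In the 250 bases before the start, searched on both strands, AGTCAC was found in 128 of 141 ribosomal protein promoters (90.8%), in 9.40% of all 5105 protein-coding promoters and in 7 of the 77 genes (9.09%). Of those 7, 3 encode box particle proteins (fib1, cbf5 and nop10, out of 7), 3 belong to the small-subunit processome (noc4, rrp7 and rrp9) and 1 is a large-subunit factor (noc1). ACCCTA stood in 46.8% of ribosomal protein promoters, 7.03% of all promoters and 5 of the 77 (6.49%). AAAATTTT occurred in 11 of the 77 promoters (14.3%) against 6.99% of all, and GATGAG, the core of the PAC element of S. cerevisiae, in 4 (5.19%) against 6.86%. The box particle genes gar1, nhp2 and nop58 held none of the 4 motifs. None of the 4 motifs contains another, and a match describes letters in this window, not a binding site.

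No change of these genes with loss of slr1 was detected. In steady-state RNA 0 of 77 passed the test between knockout and WT (edgeR quasi-likelihood, adjusted p below 0.05), against a background of 0.0186% of 5371 genes tested, which is slr1 alone. None of the 77 reached an unadjusted p below 0.05, and DESeq2 also called 0 of the 77. Only 18 of all 5371 genes reached such a p. That is well under the share of 0.05 that unchanged genes would give, so the absence of members there says little. The log2 fold changes ran from −0.44 for rrp9, a U3 particle protein, to 0.41 for nop10, a box H/ACA protein, with a median of −0.02 (all genes −0.01). The median half-width of the 95% interval was 0.61, and for 71 of 77 genes the whole interval lay within ±1 on the log2 scale. The extremes show how wide the cultures spread: rrp9 stood at 137.4, 87.15 and 107.8 CPM in WT and at 53.37, 110.2 and 77.85 CPM in the knockout, so that the groups overlapped.

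At steady state no member of any class passed. The median log2 fold change was −0.06 for the small-subunit processome, −0.02 for large-subunit factors, 0.08 for the exosome and 0.04 for box particle proteins. In the same order these medians were −0.02, −0.05, −0.12 and −0.12 within set A. Within set B they were −0.08, −0.14, −0.03 and 0.003, so the exosome median lay below 0 in both sets. Each set has a lone culture of 1 genotype, and the part of the sets in the pooled medians was not tested. Fibrillarin was at 472.3, 476 and 635.8 CPM in WT and at 546.5, 539.1 and 516.8 CPM in the knockout, and the knockout values fell inside the WT range. The largest spread belonged to nop10, which had 293.2, 417.5 and 687.6 CPM in WT and 760.7, 281.3 and 784.9 CPM in the knockout. Its 3 high libraries are the 3 of set B and its 3 low ones those of set A, whichever the genotype. The H/ACA protein gar1 was high in WT culture 2 and knockout culture 2 (956.1 and 722.9 CPM) and between 428.1 and 492.4 CPM in the other 4 cultures.

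The labelled RNA gave the same count. Between knockout and WT, 0 of 77 passed at each of the time points 5, 20, 50, 105 and 125 (background 0.0172% of 5812 genes at each, again 1 gene) and 0 passed when the 5 labelled libraries of a culture were summed (background 0.0166% of 6013). An unadjusted p below 0.05 occurred for no member at 4 time points and in the sums. At time point 105 it occurred for 1, imp2 (log2 fold change 0.60, SE 0.25, adjusted p = 0.9997, edgeR). Over all genes such a p occurred for 45 to 163 of 5812 per time point and for 38 of 6013 in the sums. These are also under a share of 0.05. With each time point fitted alone, 0 members reached it at any time point, where 15 to 84 of all genes did. At time point 5 that fit called 0 of all genes, slr1 included. In the summed data the fold changes ran from −0.53 for imp4, which helps the U3 RNA pair with the precursor, to 0.22 for imp2, with a median of −0.03, and 74 of 77 intervals lay within ±1. Scaled to human counts, the median of all genes moved to −0.29 at steady state and to between −0.35 and 0.46 at the labelled time points, the medians of the 77 moved with it, and the calls stayed at 0. At steady state the imp4 levels were 223.5, 79.8 and 130.8 CPM in WT and 81.84, 139.5 and 125.4 CPM in the knockout, and the first WT culture stood above the other 5.

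**Figure D1:**
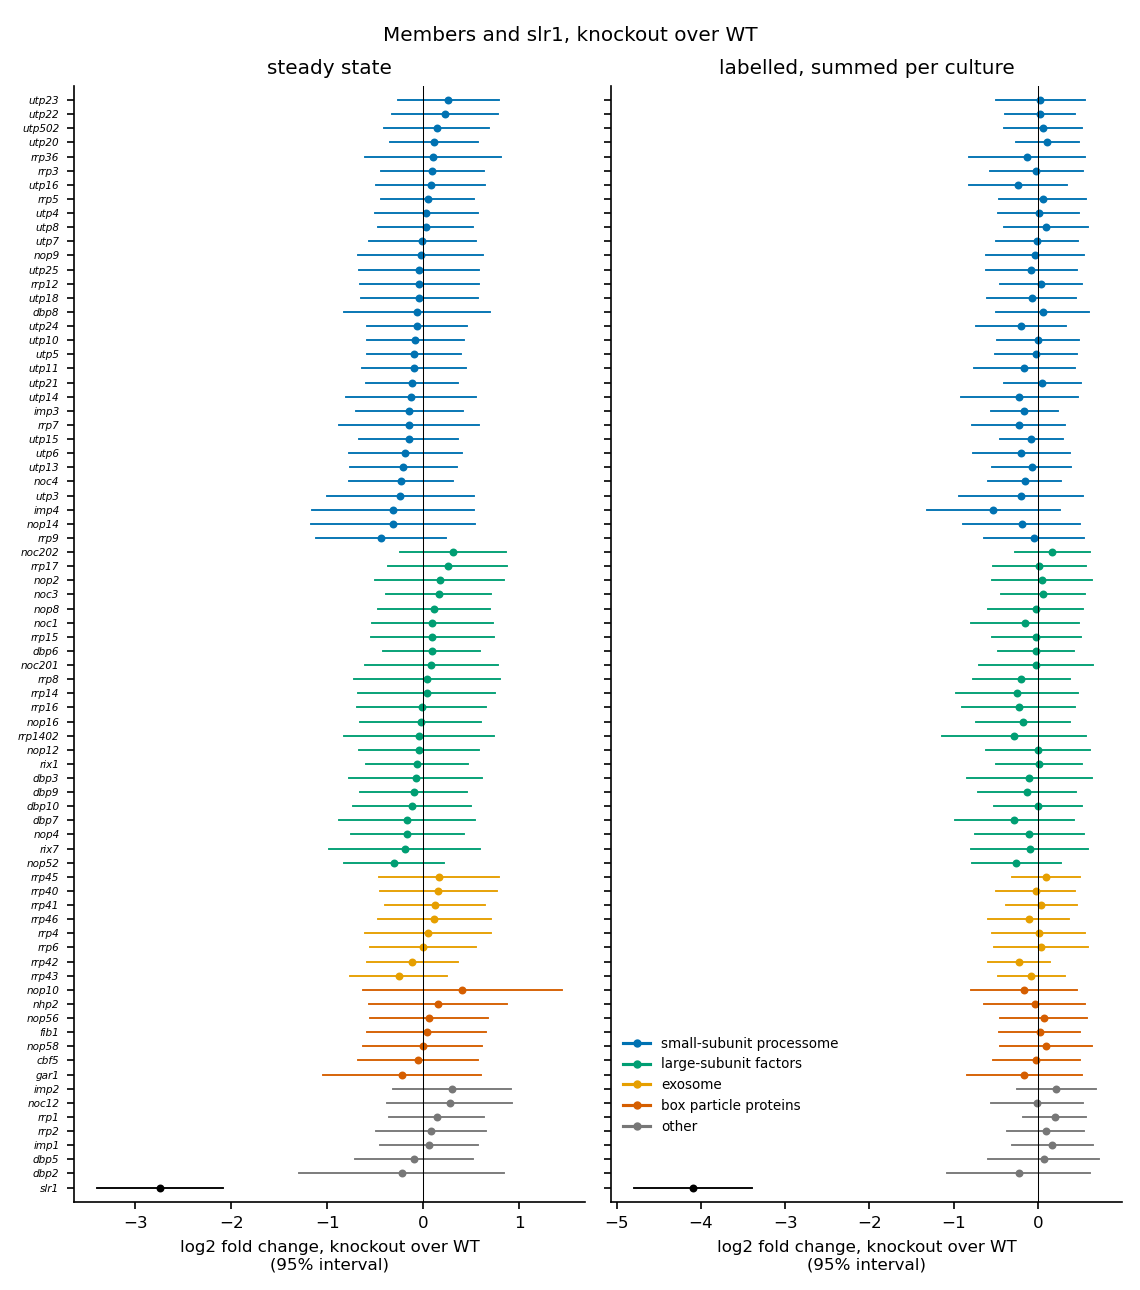
Log2 fold change of each of the 77 genes and of slr1, knockout over WT, in steady-state RNA (left) and in labelled RNA summed per culture (right); points are estimates, lines 95% intervals and colours the classes. The intervals of all 77 genes cross 0, with estimates between −0.53 and 0.41, while slr1 stands at −2.74 and −4.10.

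The youngest RNA differed from steady-state RNA in a way that divided the classes. In WT, 10 of 77 genes were higher and 5 lower at time point 5 than at steady state, against a background of 10.6% of genes higher and 11.2% lower (21.8% of 5823 in all). The higher genes were 8 of the 32 processome genes and the translocase genes rrp1 and rrp2. The lower ones were the box particle genes nop10, fib1 and nhp2, the large-subunit factor rrp14 and the exosome subunit rrp43. The total of 15 among 77 is close to the background, and the median over the 77 was 0.19 beside 0.06 for all genes. Medians by class were 0.31 for the small-subunit processome, 0.18 for large-subunit factors, 0.03 for the exosome and −0.74 for box particle proteins, beside −2.30 for ribosomal proteins, of which 131 of 141 fell. Blocking on the culture, which pairs its libraries, gave 29 higher and 9 lower genes (background 28.5% and 24.4%, 52.9% in all), including 17 higher processome genes and 5 lower box particle genes. Scaled to the human counts of each library, the median of all WT genes moved from 0.06 to −0.61. The processome median moved from 0.31 to −0.37 and the box particle median from −0.74 to −1.33. Of the 77, 0 were then called higher and 3 lower, beside 0 and 626 of all 5823 genes. On that scale 7 of the 77 genes had a value above 0, where TMM gave 54. The 2 kinds of library also differed in the share of reads without a unique alignment, 15.95% to 47.96% at steady state and 5.82% to 10.4% in labelled RNA, whose part in these differences was not tested.

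The processome genes that rose most in WT were utp22, utp20 and utp10. The HEAT-repeat protein utp20 stood at 88.1, 83.95 and 96.24 CPM at steady state and at 199.3, 144.9 and 171.5 CPM at time point 5, and every labelled value lay above every steady-state value. Its log2 fold change was 0.95 (SE 0.18, adjusted p = 2.95e-04, edgeR). For utp22, a subunit of the UtpC complex, the levels were 84.46, 61.93 and 69.09 CPM at steady state and 181.4, 103 and 167.1 CPM at time point 5. These groups also did not overlap, and its change of 1.07 (SE 0.20, adjusted p = 2.89e-04, edgeR) was the highest of the 77. The UtpA subunit utp10 rose by 0.80 (adjusted p = 0.00901), from 216.2, 217.4 and 169.4 CPM to 415.6, 303.5 and 332.9 CPM, again without overlap.

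The other processome genes called higher without the culture block had smaller changes. They were rrp12, a late export and cleavage factor (0.71, adjusted p = 0.0222), the UtpA subunits utp8 (0.70, adjusted p = 0.0188) and utp4 (0.54, adjusted p = 0.00956), rrp5, which acts on both subunits (0.57, adjusted p = 0.0369), and the UtpB subunit utp21 (0.46, adjusted p = 0.0470), all in edgeR's test. Outside the ribosome factors, rrp1 rose by 0.97 (SE 0.18, adjusted p = 2.30e-04) and rrp2 by 0.62 (adjusted p = 0.0492). Leaving out each culture in turn kept utp22, utp20, rrp1 and fib1 past the threshold, and each of the other called genes lost its call without at least 1 culture. Relative to the median of all genes, the human-scaled changes were 1.03 for utp22, 0.91 for utp20, 0.95 for rrp1, 0.73 for utp10 and −0.95 for fib1, near the TMM values, although on that scale rrp2, utp21, utp4, rrp5 and rrp12 lie below 0.

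By complex, the UtpA subunits, which bind the precursor first, all had values above 0 with TMM scaling, whereas on the human-count scale utp4, utp5 and utp15 were at −0.11, −0.36 and −0.40 and only utp8 (0.05) and utp10 (0.12) lay above 0. The 5 among the 77 (utp4, utp5, utp8, utp10 and utp15) ran from 0.23 to 0.80 in WT, and 3 passed without the culture block. With the block utp5 passed as well. The 4 UtpB subunits utp6, utp13, utp18 and utp21 had values from 0.30 to 0.46, all of them below 0 on the human-count scale (−0.42 to −0.14). Without the block utp21 alone passed, and with it utp6, utp18 and utp21 were called higher. UtpC was mixed, with 1.07 for utp22 and −0.38 for its partner rrp7 (adjusted p = 0.393, edgeR). The U3-associated proteins imp3, imp4 and rrp9 had values of 0.01, 0.05 and 0.24, and the nuclease utp24 −0.07, none of which passed.

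**Figure D2:**
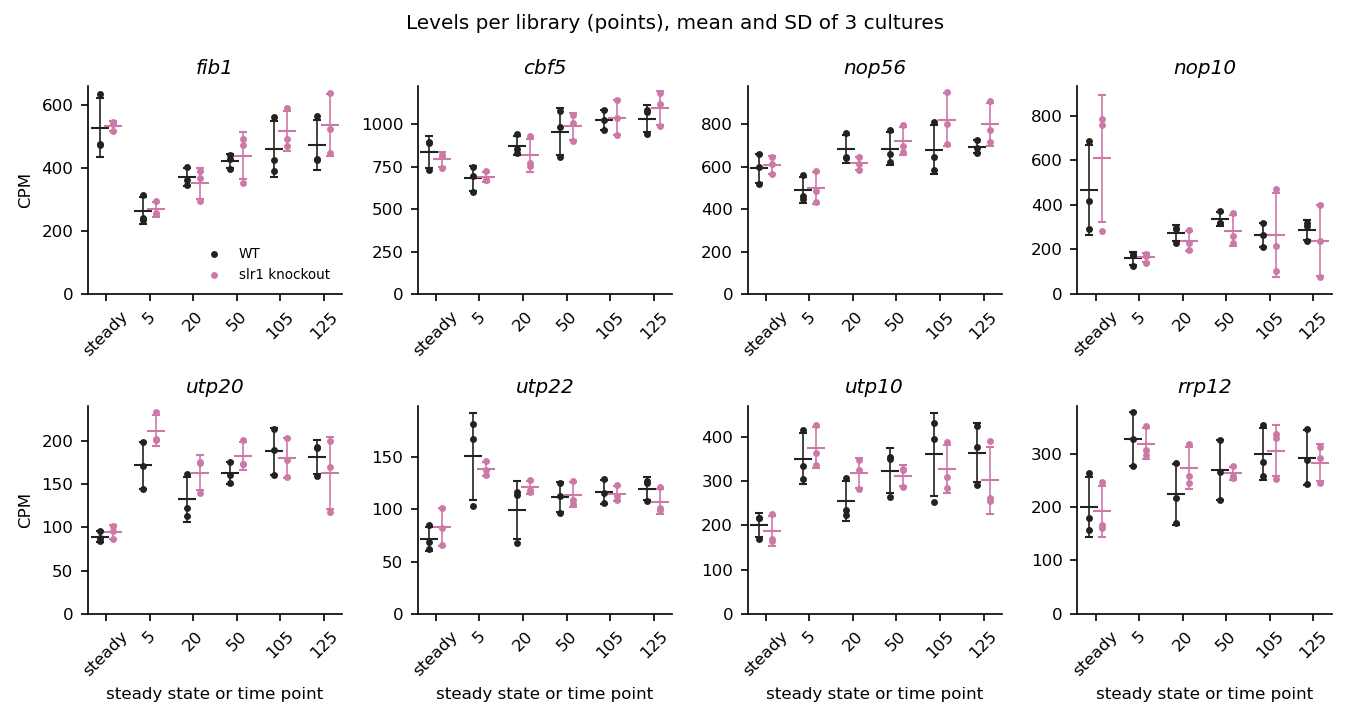
CPM in each library of 8 genes, at steady state and at the 5 labelled time points, for WT (black) and slr1 knockout (pink); points are cultures, bars the mean and SD of 3. Box particle genes (top row) dip at time point 5, for fib1 to 236.5 to 313 CPM in WT, while processome genes (bottom row) stand above their steady-state level, for utp20 at 144.9 to 199.3 CPM.

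Among the box particle proteins the drop was clearest for fib1, the rRNA methyltransferase. It went from 472.3, 476 and 635.8 CPM at steady state to 236.5, 242.8 and 313 CPM in the youngest WT RNA, a log2 fold change of −0.999 (SE 0.19, adjusted p = 3.63e-04, edgeR), and the groups did not overlap. The H/ACA protein nop10 fell by 1.53 (SE 0.45, adjusted p = 0.0152), from 293.2, 417.5 and 687.6 CPM to 127.7, 177.2 and 179 CPM, also without overlap, but it lost its call without any 1 of the WT cultures. For nhp2, another H/ACA protein, the change was −0.74 (adjusted p = 0.0362). The scaffold proteins nop56 and nop58 of the C/D particle and the synthase cbf5 had changes of −0.27, −0.20 and −0.30. None of them passed without the culture block, and with it cbf5 was called lower in WT. The H/ACA protein gar1 had a change of −0.90 that missed the threshold in the unpaired test (adjusted p = 0.0743) and passed with the culture block (adjusted p = 2.42e-05).

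Large-subunit factors and the exosome had medians nearer to 0. Without the block on cultures, only rrp14 in the first class was called lower in WT, by 1.18 (SE 0.42, adjusted p = 0.0418, edgeR). Its levels went from 196.8, 107.6 and 214.7 CPM at steady state to 94.77, 43.27 and 90 CPM, and within each culture the labelled library was lower. Among 8 exosome genes, rrp43, a subunit of the ring, fell by 0.63 (adjusted p = 0.0304) and the other 7 did not pass without the block. With the block rrp4 was called higher. The highest values in the large-subunit class belonged to the helicase dbp7 (0.73, adjusted p = 0.179) and noc1 (0.68, adjusted p = 0.107), neither of which passed without the block. With it dbp7, dbp9, dbp10, noc1, noc202, nop2, nop8 and rix1 were called higher and nop16, rrp14 and rrp17 lower (background 28.5% and 24.4%).

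The knockout cultures, which are separate from the WT ones, gave nearly the same genes. Again 10 genes were higher and 5 lower at time point 5 than at steady state (background 13.5% higher and 13.2% lower, 26.7% in all). The 10 higher genes were the same 10 as in WT. Of the 5 lower genes 4 were shared, with the large-subunit nuclease rrp17 (−0.77, adjusted p = 0.04001) in place of rrp43 (−0.16 in the knockout, adjusted p = 0.609). The block on cultures gave 24 higher and 12 lower (background 29.6% and 24.4%, 54.1% in all), of which 21 and 7 were shared with the WT block calls of 29 and 9. The test of the difference between the genotypes' changes called 0 of 77 (background 0% of 5823 genes), with differences from −0.68 to 0.47 and a median half-width of the 95% interval of 0.73. No member had an unadjusted p below 0.05 in that test, where only 19 of all 5823 genes did. Scaled to human counts these differences ran from 0.02 to 1.09 with a median of 0.61, and all 77 were positive, beside a median difference of 0.75 over all genes, whose median change was −0.61 in WT and 0.10 in the knockout on that scale. The count of calls was 0 on that scale too.

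In knockout cultures utp20 rose most, from 101.8, 95.89 and 86.49 CPM to 200.9, 233.1 and 201.9 CPM, a change of 1.16 (SE 0.18, adjusted p = 2.50e-05, edgeR). It was followed by utp10 (1.005, adjusted p = 0.00130), rrp1 (0.99, adjusted p = 1.81e-04) and utp22 (0.74, adjusted p = 0.00712). The lower genes were nop10 (−1.89, adjusted p = 0.00285), rrp14 (−1.57, adjusted p = 0.00717), fib1 (−0.99, adjusted p = 3.48e-04), nhp2 (−0.94, adjusted p = 0.00720) and rrp17. Fibrillarin went from 546.5, 539.1 and 516.8 CPM to 257.1, 295.9 and 253.2 CPM, with no overlap. Class medians were 0.31 for the processome, 0.05 for large-subunit factors, −0.17 for the exosome and −0.83 for box particle proteins (all genes 0.04). Without knockout culture 1 or 3 only 5 genes passed, and scaled to human counts 0 did.

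Transcript length tracked these changes and differed between the classes. Across the 77 genes the WT change had a Spearman correlation of 0.708 with the length of the spliced transcript, beside 0.608 across 4896 protein-coding genes; these are descriptions across genes that share the same libraries and base composition. Up to 1 kb the median of all protein-coding genes was −0.68, from 1 to 2 kb 0.03, from 2 to 3 kb 0.42 and over 3 kb 0.59. The 77 genes had medians of −0.17, 0.05, 0.32 and 0.71 in the same bins (8, 38, 24 and 7 genes). Over 3 kb, 6 of 7 were called higher, beside 271 of 770 protein-coding genes of that length (35.2%), including utp20 (7592 bases), rrp5 (5519 bases), utp10 (5374 bases) and utp22 (3596 bases). Number of uridines, where 4-thiouracil can be built in, is closely tied to length and gave 0.718. How far length or uridine content sets the pull-down was not tested.

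Set against genes of the same length bin, the classes kept part of their differences. After the median of the bin was subtracted, the WT median was 0.18 for the small-subunit processome, −0.10 for large-subunit factors, −0.04 for the exosome and −0.77 for box particle proteins, and −1.66 for ribosomal proteins. In these terms fib1 stood at −1.03, gar1 at −0.93 and cbf5 at −0.33. Among the long genes utp22 stood at 0.48 and utp20 at 0.36 above its bin, and rrp1 at 0.56. Other called long genes lay near their bin, such as rrp5 (−0.01), rrp2 (0.04) and utp21 (0.05), and nop2, not called, lay at −0.20. In the knockout the median was 0.10 for the processome and −0.85 for box particle proteins.

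**Figure D3:**
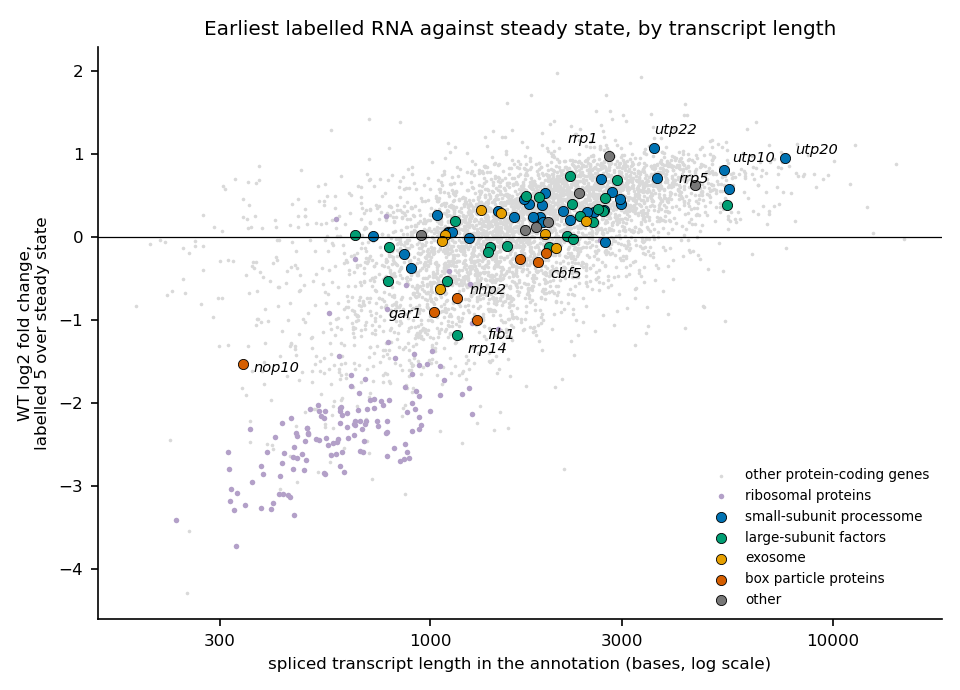
WT log2 fold change of labelled 5 over steady-state RNA against spliced transcript length (log axis), for all protein-coding genes (grey), ribosomal proteins (purple) and the 77 genes by class. The cloud climbs with length. Box particle genes lie below the median of their length bin but within the range of genes that long. The gene fib1 at −0.999 lies further below than nop58 (−0.20), nop56 (−0.27) and cbf5 (−0.30), while utp20 at 0.95 lies with other long genes.

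Within the labelled RNA, the box particle proteins were the class that was lower at time point 5 than at time point 125. In WT 0 genes were higher and 2 lower, fib1 (−0.84, SE 0.19, adjusted p = 0.00379) and cbf5 (−0.60, SE 0.16, adjusted p = 0.0152, edgeR), against a background of 2.08% higher and 6.68% lower (8.76% in all). All 7 box particle genes had values between −0.84 and −0.44, with a class median of −0.60, where the processome had 0.16, large-subunit factors 0.06, the exosome 0.12 and all genes 0.08. The synthase cbf5 stood at 600.7, 748.6 and 694 CPM at time point 5 and at 1071, 1084 and 942.5 CPM at time point 125, with no overlap. For fib1 the values at time point 125 were 424.7, 429.5 and 565.3 CPM. The call on cbf5 was lost without WT culture 1 or 3, where 1 gene remained called.

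Blocked on cultures, 5 genes were higher and 10 lower in WT (background 19.8% and 20.2%, 40% in all), and the lower ones held all 7 box particle genes. Scaled to human counts, the median of all genes was −0.96 and 1383 of 5823 genes passed, all lower. Of the 77, 12 passed, all lower, the 7 box particle genes among them. In the knockout 1 gene was higher, rrp1 (0.64, adjusted p = 0.0202), and 3 were lower, fib1 (−0.997, adjusted p = 7.43e-04), nop56 (−0.68, adjusted p = 0.0111) and cbf5 (−0.67, adjusted p = 0.00707), against a background of 2.18% higher and 6.30% lower (8.48% in all). The block gave 11 higher and 8 lower (background 19.7% and 17.5%, 37.1% in all), with 6 of 7 box particle genes lower. Without knockout culture 3 no gene passed, and without culture 1 or 2 there were 1 and 2. Ribosomal proteins fell in 113 of 141 cases in WT and 112 in the knockout. The comparisons with steady state and with time point 125 share their time point 5 libraries, so they are not independent of each other. The length relation was weaker here, with a Spearman correlation of 0.124 across the 77 in WT and 0.333 in the knockout.

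Over the labelling course the box particle proteins stood furthest under their steady-state share at time point 5. The median of their WT levels relative to steady state, on the log2(CPM + 1) scale, was −0.74 at time point 5, −0.19 at 20, −0.26 at 50, −0.20 at 105 and −0.16 at 125. In the knockout the course was −0.83, −0.49, −0.11, −0.04 and 0.01. The processome medians in WT were 0.31, 0.01, 0.01, 0.16 and 0.16. Ribosomal proteins ran from −2.29 through −1.35, −0.75 and −0.51 to −0.52 in WT. These are medians of group means with no test. The gene nop10 in particular was uneven in the knockout at time point 125, at 397.4, 240 and 78.43 CPM, beside 303.4, 319.9 and 237.6 CPM in WT.

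**Figure D4:**
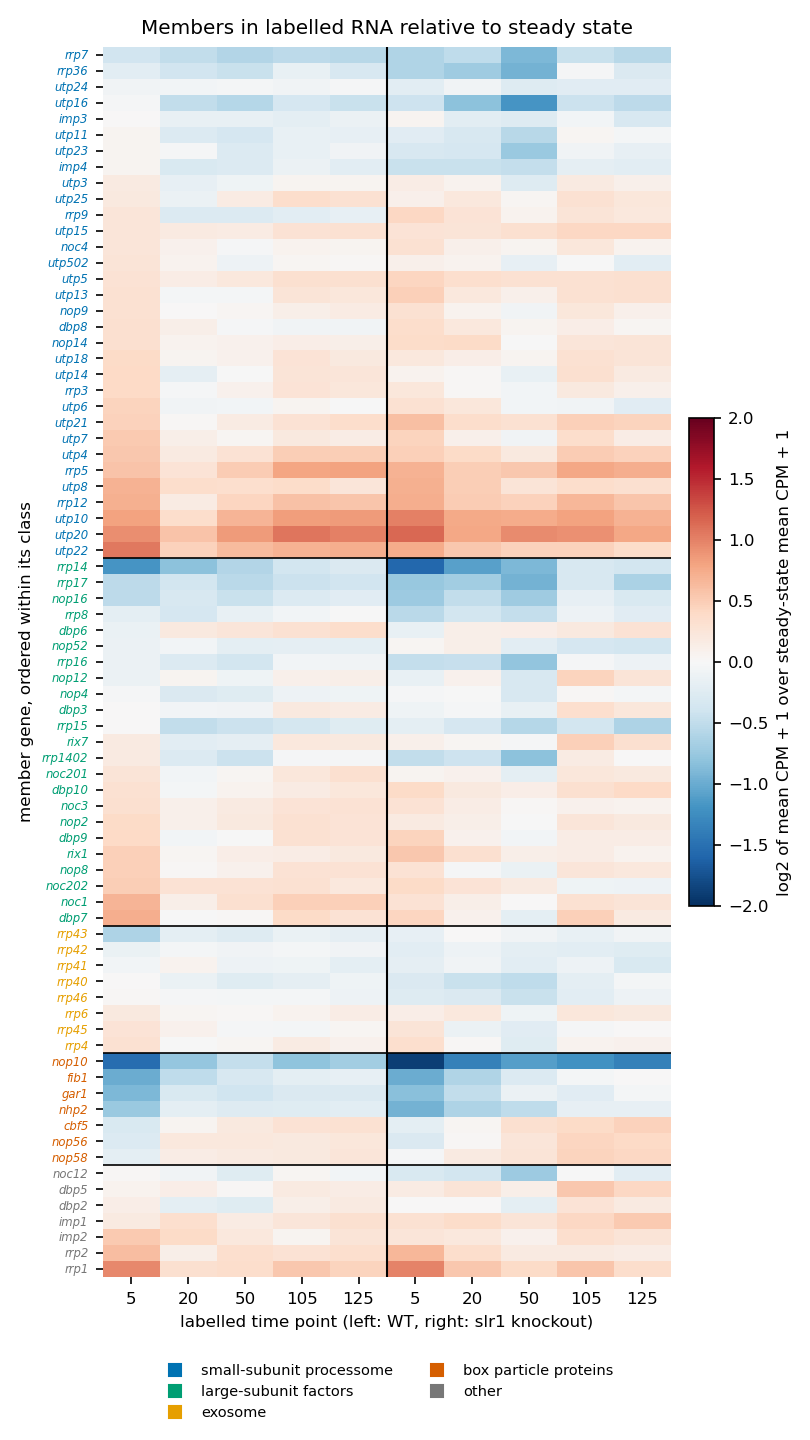
Log2 ratio of mean CPM + 1 at each labelled time point to steady state for the 77 genes (rows, by class and WT value at time point 5), WT on the left and slr1 knockout on the right. The box particle rows are blue at time point 5 (median −0.74 in WT) and paler later, and the bottom of the processome block is red, for utp20 and utp22 most of all.

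At steady state some genes separated by culture set, most often among exosome and box particle genes. The 3 set B cultures all lay above the 3 set A cultures for 5 of 8 exosome genes (rrp4, rrp40, rrp41, rrp45 and rrp46) and for 4 of 7 box particle genes (nhp2, nop10, nop56 and nop58), against 17.8% of all genes. In the large-subunit class it was 5 of 23 and in the processome 1 of 32, and over all 77 genes it was 16 (20.8%), near the share of all genes. They all lay below set A for cbf5, gar1 and the processome genes noc4, rrp12, utp10 and utp13, which is 6 of 77 (7.79%) against 19.2% of all genes. The exosome cap subunit rrp40, for instance, stood at 120.1, 117.5 and 111.4 CPM in set A and at 172.7, 170.8 and 167.6 CPM in set B. The ring subunit rrp45 stood at 63.1, 62.57 and 62.01 CPM in set A and at 97.06, 88.24 and 95.14 CPM in set B. Each set holds both genotypes, so any gene that separates by set has both on either side. The sets were defined by the ratio of fly to human counts and not by these levels, and what else differs between them was not tested.

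The other ribosome biogenesis genes, a list of 61 matched by symbol, are given for comparison. In WT 3 of 61 were higher and 5 lower (background 10.6% and 11.2%) at time point 5 than at steady state, with a median of 0.10, and the knockout gave 3 and 5 (background 13.5% and 13.2%) with a median of 0.07. The difference from the 77 was not tested. The lowest value in WT was that of snu13, a box C/D core protein (−2.07, SE 0.25, adjusted p = 5.43e-07, edgeR; knockout −2.10), and it was lower than time point 125 as well (WT −1.65, knockout −1.83). Of this list, dim1, drs1 and lsg1 carry symbols of S. cerevisiae factors but are annotated in S. pombe as a spliceosome subunit, a tRNA ligase and a kinase complex subunit. Among these dim1 was lower in WT (−2.05, adjusted p = 0.00100).

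A steady difference in these genes lay between 2 of the WT cultures. WT culture 1 stood above WT culture 2 in all 6 libraries for 61 of 77 genes (79.2%), against 31.6% of all 5823 genes, with 22 of 23 large-subunit factors, 28 of 32 processome genes, 5 of 8 exosome genes and 1 of 7 box particle genes. Ribosomal proteins went the other way, with culture 2 higher in all 6 libraries for 123 of 141 (87.2%), and of the other ribosome biogenesis genes 42 of 61 followed the 77. The helicase dbp7 had 90.53 CPM in WT culture 1, 42.14 in culture 2 and 58.4 in culture 3 at steady state, and 146, 43.95 and 127.6 CPM at time point 5. The ribosomal RNA methyltransferase nop2 had 413.6, 245.8 and 407.1 CPM at steady state and 505.2, 321.4 and 564 CPM at time point 5. In both genes culture 2 was the lowest of the WT cultures at either point.

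For 14 of the 77 (18.2%, against 2.01% of all genes), WT culture 2 was the lowest of all 6 cultures in every fraction. They were dbp8, rrp3, utp3, utp8, utp14, utp18 and utp502 of the processome and dbp9, dbp10, nop2, nop4, rix7, rrp14 and rrp1402 of the large-subunit factors. The steady-state median deviation of the 77 from the 6-culture mean was 0.17, −0.32 and 0.10 in the 3 WT cultures and −0.04, −0.07 and 0.09 in the knockout ones. Cultures 1 and 2 of WT both belong to set A, so the sets do not separate them. The libraries of a culture are not independent, the pattern was chosen after the values were seen, and no test was made.

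**Figure D5:**
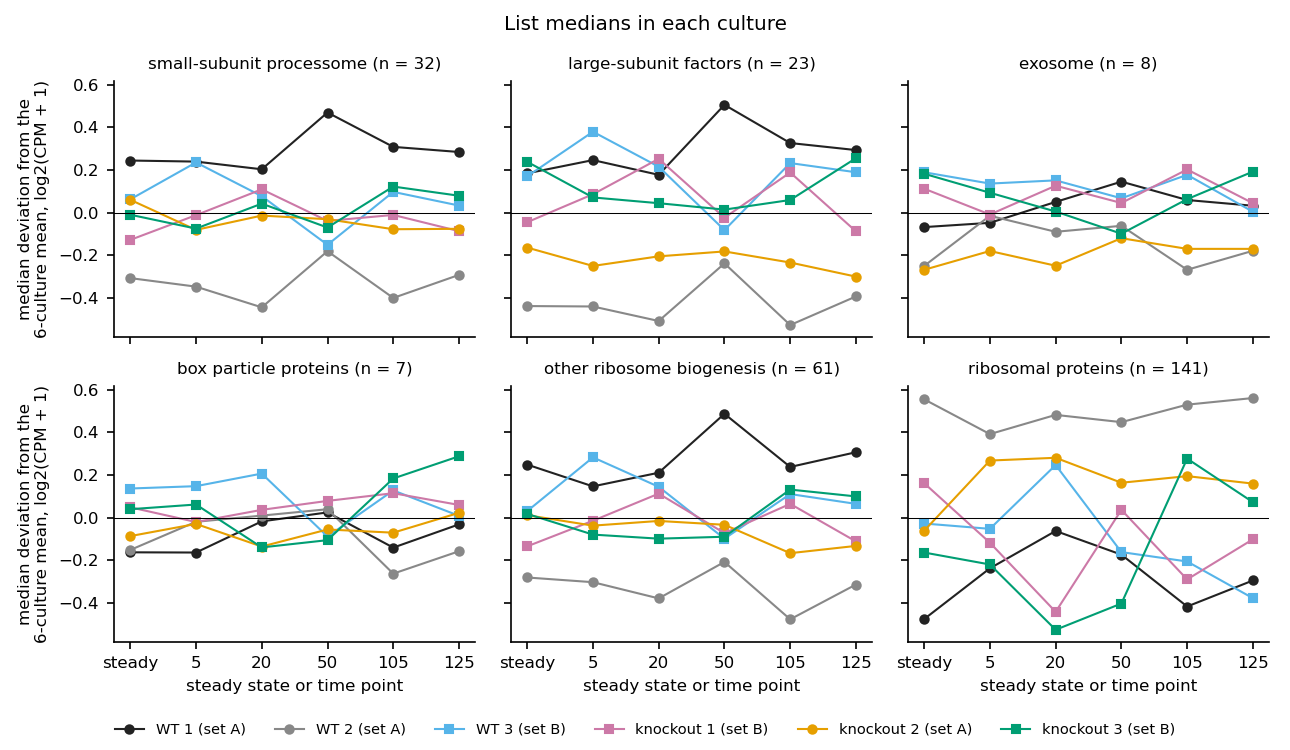
Median deviation of each list from the 6-culture mean, log2(CPM + 1), at steady state and each labelled time point, with 1 line per culture (circles set A, squares set B). WT culture 2 runs lowest in processome and large-subunit panels (the 77 together at −0.32 at steady state) and highest in the ribosomal protein panel, while the exosome and box particle lines span less, the exosome medians from −0.27 to 0.20 over all points.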

How the data were processed

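The authors deposited 1 table per library of whole-number read counts per gene over S. pombe, human and fly genes; the submitters' processing notes name R 3.5.2, HTSeq 0.6.1p2, STAR 2.5.2a and Trimmomatic 0.36. The sources do not state the genome builds, the annotation, the strand setting of the counting or the role of human and fly RNA, so counts of genes that overlap or have antisense partners are uncertain. Per the labels' protocols, libraries were made with a stranded mRNA kit. Summary lines (no feature 3.62% to 8.49%, ambiguous 0.367% to 0.752%, not unique 5.82% to 48.0%) were left out of library sizes.

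S. pombe counts were tested with edgeR 4.0.16 (limma 3.58.1, R 4.3.3): filterByExpr with a minimum count of 10, TMM, quasi-likelihood F tests, Benjamini-Hochberg adjustment over all genes, calls at 0.05. Steady-state libraries were fitted alone, labelled libraries together, labelled sums per culture alone, and time contrasts over all 36. The code was tested on simulated data. Alternatives were RLE size factors, human-count scaling, no filter, DESeq2 1.42.0, blocks, culture sets and leaving out each culture. Libraries of 1 culture deviated together (r 0.322 to 0.876 in 30 pairs) and the labels say that portions came from 1 culture, so the culture pairs the libraries of a time contrast; the values reported are from the fit without that block, and the paired counts stand beside its counts. P-values rest on the spread between cultures at steady state and in the sums. The joint fit of labelled libraries and the unblocked time contrasts treat libraries of 1 culture as independent, although they deviate together. With the culture block the spread is that within cultures. Each labelled time point was also fitted alone. Members, lists and classes were chosen with earlier results of these data known. Named per comparison were slr1, fib1, cbf5, gar1 and nhp2, in each class up to 3 called members by size of change (without calls, the 2 of lowest p), and the 5 highest and 5 lowest members. Further called members are named to account for every call, and processome complexes and the examples of culture and set differences were chosen after their values were seen. Sequences and lengths are from RefSeq (ASM294v3), joined by locus tag (6846 of 7268 matched).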

Additional observations from a re-analysis of the deposited data

How the results depend on the processing

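Knockout against WT gave 0 of the 77 in all 7 comparisons and in both tests of the difference between genotypes under each alternative run, and so did blocking on the culture number (replicate block), whose numbers do not pair WT with knockout (r −0.531 to 0.612 over 18 pairs, other numbers −0.769 to 0.649 over 36). Some of these fits did not call slr1 itself, so their 0 says little about the 77. At steady state the fit without WT culture 1 called 0 of 5337 genes. The fits within set A, with a lone knockout culture, did not call slr1 in any of the 7 comparisons. The time contrasts moved, and so did their counts over all genes. For WT time point 5, human-count scaling called 1383 of 5823 genes against time point 125 and 626 against steady state. In the knockout against steady state it called 215. DESeq2 called 683 of 5823 genes in WT and 618 in the knockout against time point 125. For WT time point 5 against 125 (2 called) the counts were 12 with human-count scaling, 6 with DESeq2, 0 within set A, 0 within set B and 15 with the culture as replicate block, and 1 to 4 with a culture left out. For WT time point 5 against steady state (15) they were 3 with human-count scaling, 4 within set A, 38 with the block, and 4 to 14 with a culture left out (7 without WT culture 1, 4 without WT culture 3, 8 without knockout culture 1). For the knockout, time point 5 against 125 (4) gave 8 with DESeq2, 0 within set A, 13 within set B, 19 with the block and 0 to 5 with a culture left out. Time point 5 against steady state (15) gave 0 with human-count scaling, 0 within set A, 25 within set B, 36 with the block and 5 to 19 with a culture left out. The all-gene median moved with human-count scaling, so its calls are on another zero; 6 called genes changed sign there: in WT time point 5 against steady state rrp2 (−0.091), rrp12 (−0.012), utp4 (−0.107), rrp5 (−0.080) and utp21 (−0.186), and rrp1 in the knockout against time point 125 (−0.083). Called or not, 47 of 77 genes changed sign in the first of these comparisons and 38 in the second. Set A holds 1 knockout culture and set B 1 WT culture, so those fits assume that the lone culture varies like the others. Their counts over all genes moved too, so their counts of members alone show no trait of these genes. Other causes were not tested. Between genotypes the median half-width of the 95% intervals was 0.61 at steady state and 0.545 at time point 5. For single genes the bounds reached 1.446 at steady state and −1.815 at time point 5. Larger changes than the median half-width are therefore not excluded for every gene.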
